A study of Mus musculus with 3 samples.

Results

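The genes described here are the subunits of integrins and laminins together with the nidogens, 36 genes among the 18194 that had a probe set with 1 gene symbol on the array. They were chosen by symbol from the platform's annotation: 24 integrin subunits, 10 laminin subunits and 2 nidogens, covered by 77 probe sets. Each gene was represented by the probe set with the highest mean signal over the 3 arrays. Kidney RNA came from male C57BL/6J mice aged 16 weeks in 2 groups. Cardio-renal syndrome was modelled by banding the abdominal aorta, at a point the labels place under the branching of the renal arteries, and removing a kidney 2 weeks later (2 samples, called cardio-renal arrays 1 and 2). The mice set against them had uninephrectomy alone (1 sample). The kidney that was left was taken whole, 6 weeks after the uninephrectomy in both groups, so all mice shared the loss of a kidney. The design text also mentions sham operations, and the labels do not say whether the uninephrectomy mice had a sham banding or whether a sample held RNA of 1 mouse. The question was which of these adhesion and basement membrane transcripts differed when aortic banding was added to uninephrectomy.

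Integrins are cell surface receptors made of an alpha and a beta subunit that bind matrix proteins outside the cell and, through talin, kindlin and other adaptors, the actin cytoskeleton inside it. Laminins are trimers of an alpha, a beta and a gamma chain that form the first sheet of a basement membrane, and nidogens join that sheet to collagen IV. In kidney they line every tubule and form part of the glomerular filter, where the integrin of *Itga3* and *Itgb1* anchors podocytes to the laminin of *Lama5*, *Lamb2* and *Lamc1*.

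No member passed the test between the groups, and none was as much as 1.5-fold higher or lower in both cardio-renal arrays. Differences are of log2(MAS5 signal + 28.8), a scale that understates the change of dim genes, and a gene was kept for testing where its mean on that scale reached 7.02, the median of all probe sets. Of the 36 genes, 27 were kept, 16 integrin subunits and 11 laminin subunits or nidogens. Their mean differences ran from -0.50 for *Lama4* to 0.44 for *Itga2b*, that is from 0.709-fold to 1.36-fold. With limma and Benjamini-Hochberg adjustment over 11145 kept genes, 0 of the 27 passed (0% of all kept genes passed) and every adjusted p was 0.9998. At an unadjusted limma p under 0.05 there were also 0 members, against 2.51% of all kept genes, and the lowest unadjusted p among members was 0.0979 (limma, *Itga2b*). The fit has 1 residual degree of freedom, so a p that misses the threshold does not show that the levels were alike, and an exact permutation of 2 against 1 array cannot go below a one-sided p of 0.333. Its residual spread is that between the 2 cardio-renal samples, which may be technical, and the lone uninephrectomy array is assumed to vary like them.

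Counts by direction were even over all members. Of the 27 kept members, 10 were higher in both cardio-renal arrays (30.7% of all kept genes), 10 were lower in both (29.8%) and 7 lay on opposite sides. At least 1.5-fold in both arrays, there were 0 members higher (0.511% of all kept genes) and 0 lower (0.35%). The median of the mean difference was -0.046 for members and -0.0047 for all kept genes. For 10 of the 27 both arrays lay on the same side and the mean difference was larger than the difference between the cardio-renal arrays (37.5% of all kept genes). These were *Itga2b*, *Itga9*, *Lama5*, *Lamb2* and *Nid2* on the higher side and *Itgal*, *Itgb1*, *Itgb6*, *Lamb1* and *Lamc1* on the lower. Both differences are taken from the same uninephrectomy array, so a shared side can come from that array alone.

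The libraries were alike in median signal, 106 and 102 on the cardio-renal arrays and 100.1 on the uninephrectomy array. Tubule markers were bright, with 11 of 11 measured genes kept, and podocyte and endothelial markers were present with 6 and 8 kept genes. Cardio-renal array 1 stood apart in male-biased kidney genes, whose summed signal over 6 genes was 25760 there and 65150 in array 2, against 64335 with uninephrectomy alone. Heart muscle markers summed to 2520 and 1912 in the cardio-renal arrays, against 502 with uninephrectomy alone. Both lists came from earlier results of these data, so their sums are no independent check of the arrays. The part of either in the results was not tested. Signals of each member described are given for array 1 and array 2 apart, while the test and most mean differences use both. Without array 1, 12 members were higher and 15 lower, and without array 2, 15 were higher and 12 lower. Shares of all kept genes on each side of a single array were not computed, so none stands beside these counts. The median difference of all kept genes was 0.0085 in array 1 and -0.0028 in array 2.

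**Figure D1:**
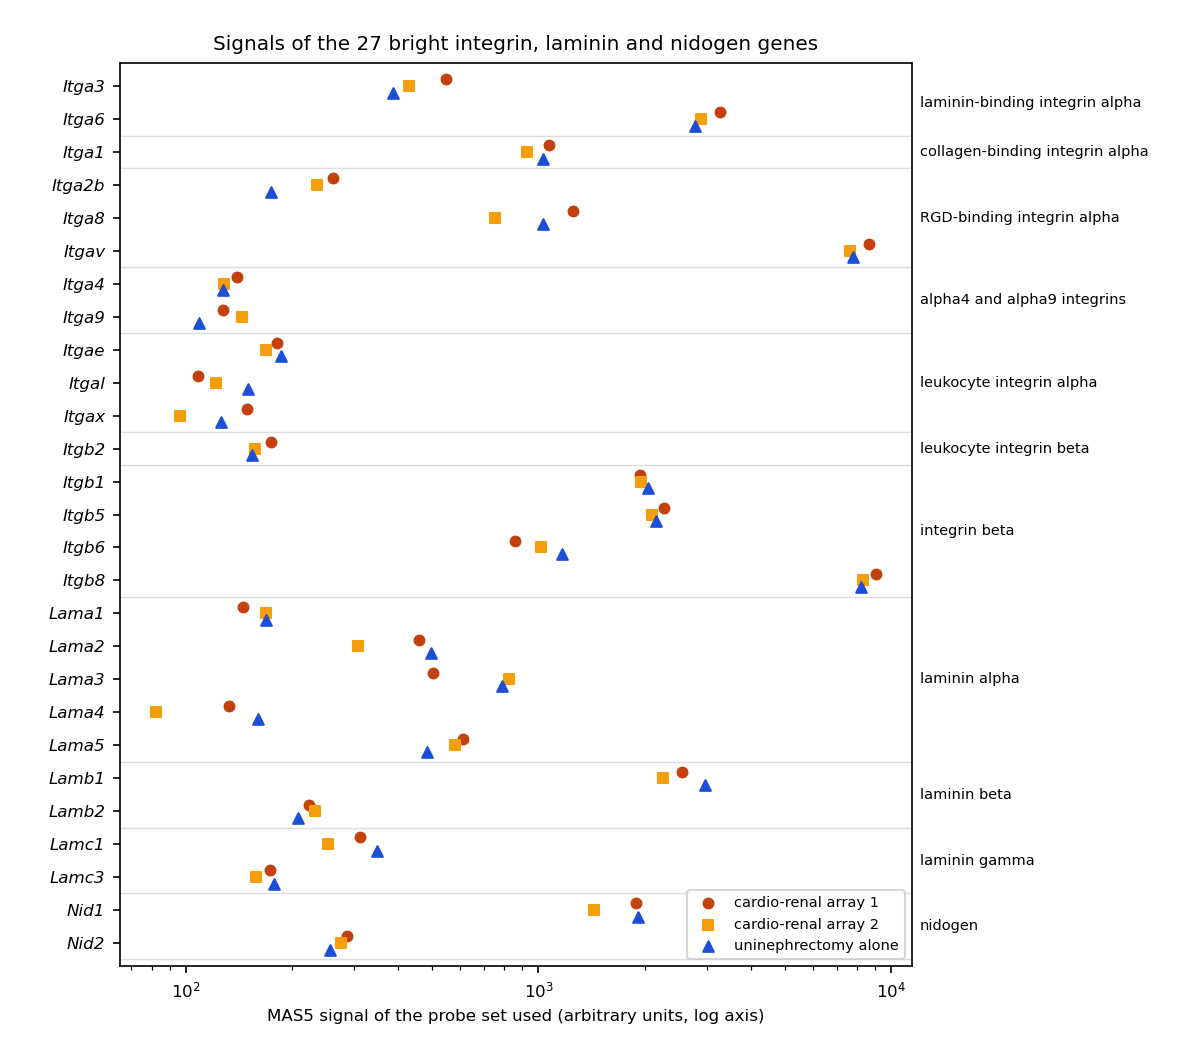
MAS5 signal (log axis) of the probe set used for each of the 27 kept genes, with cardio-renal arrays 1 (circles) and 2 (squares) above the uninephrectomy array (triangles) and genes grouped by role. Signals of different genes depend on their probes and are not to be compared; within a gene the 3 arrays lie close together, and *Lama4*, with 132.3 and 82.4 against 160.1, is among the widest spread.

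The kept laminin-binding alpha subunits, *Itga3* and *Itga6*, were higher in both cardio-renal arrays. *Itga3*, the podocyte and tubule laminin receptor subunit, had signals of 545.4 and 430 in the cardio-renal arrays, against 386.9 with uninephrectomy alone. Its difference was 0.47 in array 1 and 0.14 in array 2, a mean of 0.30 ± 0.23 (SD, n = 2), which is smaller than the gap of 0.32 between those arrays. *Itga6*, a laminin receptor subunit of epithelial and endothelial cells, had signals of 3267 and 2897, against 2773 with uninephrectomy alone (mean difference 0.15 ± 0.12). Its second bright probe set gave 0.11 and 0.03 on the same side. *Itga7*, the laminin receptor subunit of skeletal and heart muscle, lay just under the filter at 103.7 and 93.1, against 98.6 with uninephrectomy alone. The cardio-renal arrays thus lay on either side of the uninephrectomy array for *Itga7*.

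Among the matrix receptors that bind collagen or the arginine-glycine-aspartate (RGD) motif of fibronectin and vitronectin, *Itga2b* stood furthest from the uninephrectomy array. *Itga2b*, the alpha subunit of the platelet fibrinogen receptor, had signals of 260.8 and 235.8 in the cardio-renal arrays, against 174.9 with uninephrectomy alone. Both cardio-renal arrays were higher, as in 30.7% of all kept genes. The mean difference was 0.44 ± 0.09 (SD, n = 2, with a limma standard error of 0.23). Its partner *Itgb3* was dim, at 33 and 11.1 against 17.4. Of 7 platelet markers, 5 were measured and 1 was kept; their summed signal was 490 and 469 in the cardio-renal arrays, against 466 with uninephrectomy alone. The kept one, the platelet chemokine gene *Pf4*, was at 249 and 224.6 against 241.2. Of those not kept, *Ppbp* was at 79.5 and 90.9 against 43.5, and *Gp9* was below 28.8 on all arrays. *Gp1bb*, at 62.7 and 136.4 against 106.4, and *Treml1*, at 92.8 and 11.2 against 69.9, lay on opposite sides. The part of platelets in the *Itga2b* value was not tested. In whole-kidney RNA, fewer cells of a type and less RNA per cell cannot be told apart.

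*Itga8*, the mesangial and mesenchymal subunit that binds nephronectin, split the cardio-renal arrays. Its signals were 1256 in array 1 and 754 in array 2, against 1032 with uninephrectomy alone, so the differences were 0.28 and -0.44. The second bright probe set of *Itga8* split the same way, at 149 and 122.2 against 136.3. *Itgav*, the alpha subunit that pairs with several beta subunits in epithelium, had 8678 and 7648, against 7780 with uninephrectomy alone (mean difference 0.07 ± 0.13), and its next brightest probe set went the other way at -0.19. *Itga1*, a collagen IV receptor subunit of mesangial and endothelial cells, had 1074 and 927.9 against 1029, again on opposite sides. The neighbouring collagen receptor gene *Itga2* was not kept, nor were *Itga10* and *Itga5*, the fibronectin receptor subunit.

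Among the kept beta subunits, *Itgb6* had the largest mean difference. *Itgb6*, whose integrin activates latent TGF-beta in epithelium, had signals of 859.8 and 1017 in the cardio-renal arrays, against 1163 with uninephrectomy alone. Both cardio-renal arrays were lower, the mean difference was -0.31 ± 0.17 (SD, n = 2; limma standard error 0.18), and its second probe set was also lower in both (392.8 and 439.7 against 498.2). *Itgb8*, which shares the role of activating TGF-beta, had 9059 and 8304 against 8207, a mean difference of 0.08 ± 0.09. *Itgb1*, the common partner of the laminin and collagen receptor subunits, had 1937 and 1948, against 2041 with uninephrectomy alone. Its mean difference was -0.07 ± 0.0056, small but wider than the gap between the cardio-renal arrays. Of its other bright probe sets, 2 averaged -0.04 and -0.16, and the first of these put the cardio-renal arrays on opposite sides (0.06 and -0.13). *Itgb5*, a vitronectin receptor subunit, had 2272 and 2103 against 2150 and 4 bright probe sets with mean differences between 0.02 and 0.09. *Itgb4*, the hemidesmosome subunit, was dim, at 71.5 and 29.1 against 41.7. Urothelial markers, from an epithelium rich in it, summed to 937 in array 1 and 628 in array 2, against 562 with uninephrectomy alone, with 3 of 7 kept (*Upk1b* differed by 1.04 and 0.32, *Upk3a* by 0.16 and 0.10 and *Upk1a* by 0.63 and -0.06). Their part in the *Itgb4* value was not tested.

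The integrins of leukocytes gave no common direction. *Itgal*, the alpha subunit of a lymphocyte adhesion receptor, had 108 and 122 in the cardio-renal arrays, against 149.8 with uninephrectomy alone, a mean difference of -0.31 ± 0.10 (SD, n = 2). Its partner *Itgb2*, the beta subunit shared by leukocyte integrins, had 174.6 and 157.6 against 154.4, on the higher side. *Itgax*, the subunit of dendritic cells and some macrophages, was on opposite sides at 149.6 and 96.4 against 125.5. *Itgae*, the subunit of tissue-resident lymphocytes, had 181.1 and 168.8 against 185.9, but its other bright probe set had 143.3 and 128.6 against 98.0, the opposite direction. *Itgam*, the subunit of myeloid cells and the neighbour of *Itgax*, and *Itgb7* were not kept. Leukocyte markers that are not integrins summed to 6782 and 7227 in the cardio-renal arrays, against 8085 with uninephrectomy alone, over 15 measured genes. Of the 8 kept, 6 were lower in both (29.8% of all kept genes) and 2 higher (30.7%). *Lyz2* averaged -0.60, *C1qc* -0.35 and *Ptprc* -0.22, while *C1qb* averaged 0.31 and *Cd68* 0.17. The brightest, *Csf1r*, had 2845 and 3683 against 3708, nearly level in array 2. The B cell receptor gene *Cd79a* and *Cd4* were below 28.8 on all arrays. The part of leukocyte number in the *Itgal* value was not tested.

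*Itga9*, a receptor subunit for tenascin and other matrix ligands, had 127.7 and 144.2 in the cardio-renal arrays, against 108.8 with uninephrectomy alone (mean difference 0.26 ± 0.10; SD, n = 2). Both cardio-renal arrays were higher, and its other probe sets were too dim to be kept. *Itga4*, which binds the endothelial receptor of *Vcam1*, was nearly level at 139.8 and 128 against 127.6.

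**Figure D2:**
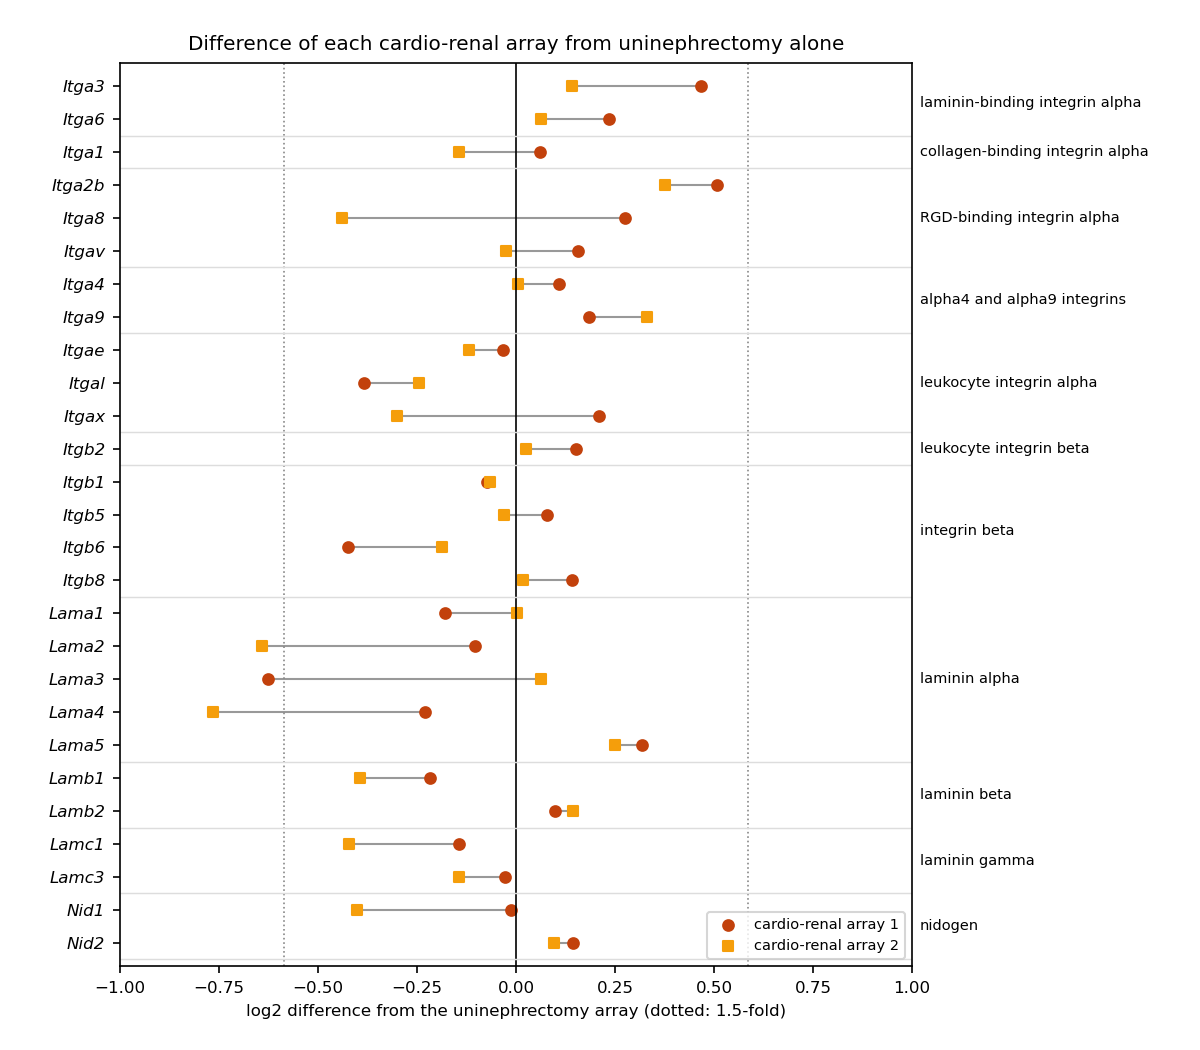
Log2 difference of cardio-renal array 1 (circles) and array 2 (squares) from the uninephrectomy array for the 27 kept genes, joined by a line whose length is the gap between the cardio-renal arrays; dotted lines mark 1.5-fold. *Lama3* passed 1.5-fold lower in array 1, *Lama2* and *Lama4* in array 2, and no gene in both.

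Of the 11 kept laminin chains and nidogens, 6 were lower in both cardio-renal arrays (29.8% of all kept genes), 3 were higher in both (30.7%) and 2 lay on opposite sides. By size, the median of their absolute mean differences was 0.28, against 0.080 for the 16 integrin subunits and 0.11 for all kept genes. None passed the test, and the 2 families were not tested against each other. The 3 chains of the laminin of the mature glomerular basement membrane did not share a direction. *Lama5* had 611.4 and 581.4 in the cardio-renal arrays, against 484.5 with uninephrectomy alone (0.28 ± 0.05; SD, n = 2). *Lamb2*, whose loss causes congenital nephrotic syndrome, had 224.1 and 232.2 against 207.5 (0.12 ± 0.03). *Lamc1*, the gamma chain of most laminins, had 312.7 and 253, against 348.9 with uninephrectomy alone (-0.28 ± 0.20). By the probe sets used, the alpha and beta chains were higher than with uninephrectomy alone in both cardio-renal arrays and the gamma chain was lower. For *Lama5* this depends on the probe set, as the other bright one was lower in both arrays (-0.16 and -0.16).

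*Lamb1*, the beta chain of embryonic and many adult laminins, had 2552 and 2257 in the cardio-renal arrays, against 2973 with uninephrectomy alone. Both were lower, with a mean difference of -0.31 ± 0.12 (SD, n = 2; limma standard error 0.17). This value rests on a probe set whose ID ends in _s_at, a suffix for probes shared by several transcripts. A second *Lamb1* probe set had 817.3 and 689.2 against 763.1, on opposite sides, and the third had 362.6 and 287.7 against 301.1, also on opposite sides. *Lama5* showed the same kind of disagreement. Its second bright probe set, an _s_at one, had 293.6 and 294.5, against 331.8 with uninephrectomy alone, a mean difference of -0.16 where the probe set used gave 0.28. Over all kept members, 15 further probe sets of 11 genes were above the filter, and 4 of them, 1 each for *Itgav*, *Itgae*, *Lama5* and *Lamb1*, had a mean difference of the opposite sign.

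**Figure D3:**
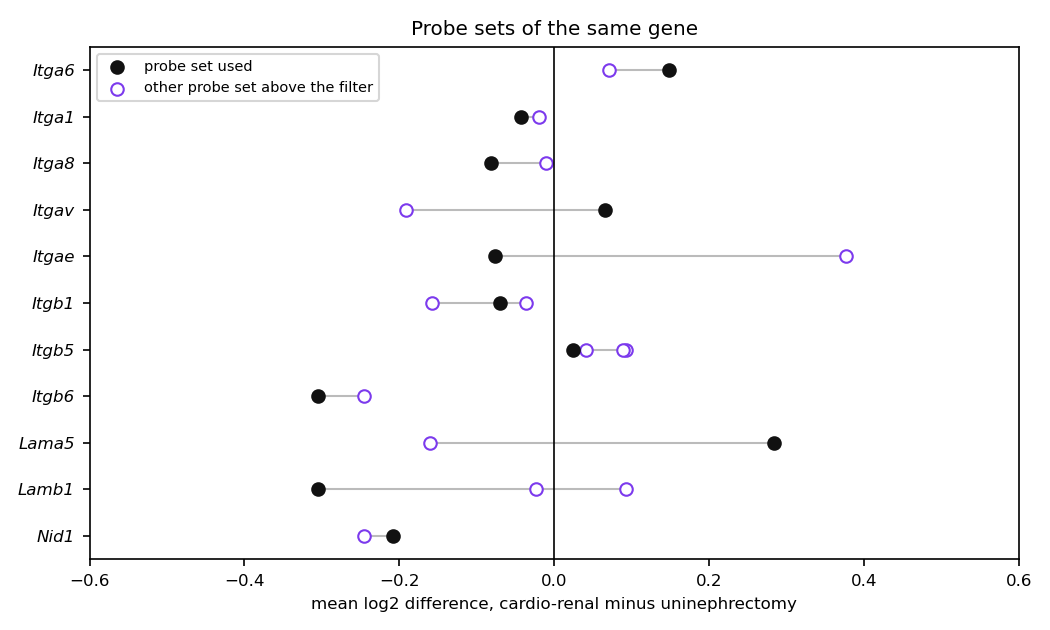
Mean log2 difference, cardio-renal minus uninephrectomy, of every probe set above the filter for the 11 kept genes that have more than 1; filled points are the probe sets used and open points the others. Open and filled points lie on opposite sides of 0 for *Itgav*, *Itgae*, *Lama5* and *Lamb1*.

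For most of the remaining alpha chains the cardio-renal arrays lay apart. *Lama2*, the laminin chain of muscle and mesangium, had 459.6 in array 1 and 307.4 in array 2, against 495.7 with uninephrectomy alone, differences of -0.10 and -0.64. *Lama4*, the chain of vessels, had 132.3 and 82.4 against 160.1, differences of -0.23 and -0.76. For both, array 2 was well below the other arrays and array 1 only a little below uninephrectomy alone. *Lama3*, a chain of epithelial anchoring laminin, went the other way: 500.9 in array 1 and 825.8 in array 2, against 789 with uninephrectomy alone (-0.63 and 0.06). *Lama1*, the chain of embryonic and proximal tubule laminin, had 145.5 and 169 against 168.5. Each array was also counted whatever the other showed. In array 1, 1 member was at least 1.5-fold lower (2.23% of all kept genes), and in array 2, 2 were (1.53%). At least 1.5-fold higher there were 0 members in array 1 (2.79%) and 0 in array 2 (1.27%).

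The nidogens lay on opposite sides of the uninephrectomy array. *Nid1* had 1896 and 1441 in the cardio-renal arrays, against 1913 with uninephrectomy alone, so that the lower mean (-0.21 ± 0.28; SD, n = 2) came almost wholly from array 2. A second *Nid1* probe set had 257.5 and 215.5 against 284.7, lower in both. *Nid2* had 286.5 and 276.4 against 256.8 (0.12 ± 0.03). *Lamc3*, a gamma chain of restricted distribution, had 173.6 and 157.9 against 177.4, and *Lamb3*, the partner of *Lama3*, was not kept at 74.1 and 71.9 against 76.3.

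Promoter sequence is shown for *Itga2b*, *Lama5*, *Lamb1* and *Nid1*. By the probe sets used, *Itga2b* and *Lama5* were on the higher side in the cardio-renal pair and *Lamb1* and *Nid1* on the lower side. The RefSeq table of GRCm38.p6 held promoters for 23 of the 36 genes. The windows are the 250 bases before the start, at chr11:102469884-102470133 and chr2:180225860-180226109 on the minus strand, and at chr12:31265043-31265292 and chr13:13437352-13437601 on the plus strand. They are written 5′ to 3′ along the gene. Capitals mark a GC box (GGGCGG) or a CCAAT box (CCAAT) on either strand.
*Itga2b*: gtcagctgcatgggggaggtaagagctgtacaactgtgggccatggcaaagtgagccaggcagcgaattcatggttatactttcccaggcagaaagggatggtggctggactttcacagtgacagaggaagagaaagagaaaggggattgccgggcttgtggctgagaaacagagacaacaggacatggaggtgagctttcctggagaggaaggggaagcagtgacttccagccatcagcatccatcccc
*Lama5*: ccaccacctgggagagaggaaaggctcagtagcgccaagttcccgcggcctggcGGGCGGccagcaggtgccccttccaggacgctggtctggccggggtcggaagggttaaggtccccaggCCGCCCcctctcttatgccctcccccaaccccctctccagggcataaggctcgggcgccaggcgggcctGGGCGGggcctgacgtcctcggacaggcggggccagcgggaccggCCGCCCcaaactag
*Lamb1*: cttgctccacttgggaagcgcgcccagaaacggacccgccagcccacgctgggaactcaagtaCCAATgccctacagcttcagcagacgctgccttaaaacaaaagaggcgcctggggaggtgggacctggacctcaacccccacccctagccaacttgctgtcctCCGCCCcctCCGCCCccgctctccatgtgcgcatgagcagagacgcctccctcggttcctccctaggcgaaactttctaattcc
*Nid1*: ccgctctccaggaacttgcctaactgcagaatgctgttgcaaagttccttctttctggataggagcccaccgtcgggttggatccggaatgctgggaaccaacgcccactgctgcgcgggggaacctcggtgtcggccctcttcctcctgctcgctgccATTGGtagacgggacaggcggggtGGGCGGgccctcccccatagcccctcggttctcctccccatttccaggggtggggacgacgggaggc
The *Lama5* window held 4 GC boxes, the *Lamb1* window 2 GC boxes and 1 CCAAT box and the *Nid1* window 1 of each, and no marked motif overlapped another. The *Itga2b* window held none of these, nor a TATA box (TATAAA), an AP-1 site (TGANTCA) or a GATA core (AGATAA), which were searched on both strands too. Over the 26 promoters of the 23 genes, 38.5% held a GC box, against 32.7% of all 32851 promoters of that length, and 19.2% held a CCAAT box, against 33.8%. A TATA box was in 0% of member promoters and 12.4% of all, an AP-1 site in 3.85% and 6.75%, and a GATA core in 3.85% and 9.99%. By the probe sets used, GC boxes occurred in promoters of members above (*Lama5*) and below (*Lamb1*, *Nid1*) the uninephrectomy array. For *Lama5* and *Lamb1* another bright probe set had a mean difference of the opposite sign, and *Nid1* was nearly level in array 1 (-0.013).

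The 9 genes that were not kept were *Itga2*, *Itga5*, *Itga7*, *Itga10*, *Itgam*, *Itgb3*, *Itgb4*, *Itgb7* and *Lamb3*. Their signals lay between 11.1 and 103.7 over the 3 arrays, 2 were higher in both cardio-renal arrays, 1 lower in both and 6 on opposite sides. *Itgam*, at 28.6 and 45.8 against 16.7, had the highest mean difference of them, 0.52 ± 0.27 (SD, n = 2), at signals where MAS5 values are noisy. With all 36 genes counted, 12 were higher in both arrays and 11 lower. Shares over all genes were computed for kept genes only, so none stands beside these counts. Of the 27 kept genes, 0 fell under the filter in the mean of a group, and 2 did so on a single array.

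Array 1 was the higher of the cardio-renal pair for 20 of 27 kept members (53.1% of all kept genes). The median differences were 0.079 in array 1 and -0.032 in array 2 for members, against 0.0085 and -0.0028 for all kept genes. Integrin subunits had medians of 0.15 and -0.028, and laminins with nidogens -0.10 and -0.14. Of the kept smooth muscle and fibroblast markers, 8 of 8 were higher in array 1 than in array 2, with medians of 0.055 and -0.28. Their summed signal over 9 genes was 10595 in array 1 and 8420 in array 2, against 10062 with uninephrectomy alone. The fibroblast and mesangial receptor gene *Pdgfrb* differed by -0.10 and -0.69 and the proteoglycan gene *Dcn* by -0.06 and -0.52. In the same list *Acta2* differed by 0.11 and -0.02, *Myh11* by 0.07 and 0.02 and *Lum* by 0.10 and -0.21. Endothelial markers were higher in array 1 in 8 of 8 genes and podocyte markers in 6 of 6, with summed signals of 9014 and 8010 against 9056 and of 3462 and 3044 against 3351. Tubule markers were higher in array 1 than in array 2 in 1 of 11. Against uninephrectomy alone, 1 of these 11 was higher in both cardio-renal arrays (30.7% of all kept genes) and 4 were lower (29.8%). Among the lower were the collecting duct genes *Slc4a1* (-0.68 and -0.29), *Aqp2* (-0.19 and -0.16) and *Scnn1g* (-0.18 and -0.12). Of the other markers on the same side in both arrays, the pericyte gene *Rgs5* differed by 0.41 and 0.25, the smooth muscle gene *Tagln* by -0.10 and -0.36, the endothelial genes *Tek* by 0.25 and 0.09 and *Plvap* by -0.23 and -0.40, and the podocyte genes *Synpo* by 0.18 and 0.07 and *Cdkn1c* by -0.25 and -0.46. The part of cell makeup in the members' values was not tested.

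The intracellular and matrix partners of these genes also gave no gene past the test. Of 32 adhesion complex genes 27 were kept, with a median difference of 0.0052. In both cardio-renal arrays 7 were higher (30.7% of all kept genes) and 10 lower (29.8%). *Src*, a tyrosine kinase of focal adhesions, had 172.8 and 243.1 in the cardio-renal arrays, against 302.5 with uninephrectomy alone. *Rsu1*, a protein of the integrin-linked kinase complex, had 1784 and 1337 against 1121, and *Parvb*, an actin-binding protein of the same complex, 164 and 208.2 against 130.6. *Fermt3*, the kindlin of blood cells, had 183.3 and 173.4 against 206.1. These 4 genes lay on both sides of the uninephrectomy array.

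Of 25 other basement membrane genes 21 were kept. In both cardio-renal arrays 11 of them were lower (29.8% of all kept genes) and 2 were higher (30.7%), with no test of the list. The list's median difference was -0.11 in array 1 and likewise -0.11 in array 2. *Bcam*, a non-integrin receptor for *Lama5* laminins, had 311.3 and 303.6, against 418.5 with uninephrectomy alone, a mean difference of -0.41 ± 0.02 (SD, n = 2). *Dag1*, the dystroglycan receptor for laminin, had 2385 and 2040 against 2699, and *Hspg2*, the heparan sulphate proteoglycan perlecan, 426.7 and 331.8 against 497.5. These 3 binding partners were lower in both arrays, as was *Lamc1*. By the probe sets used, *Lama5* (0.32 and 0.25) and *Lamb2* (0.10 and 0.14) were higher in both. The laminin receptor subunits *Itga3* and *Itga6* were higher in both too. *Tinag*, a tubular basement membrane antigen, had 7370 and 7332 against 6395, on the higher side. Of 23 other integrin ligands 17 were kept, 3 higher in both (30.7% of all kept genes) and 6 lower (29.8%). Of the 17, 16 were higher in array 1 than in array 2 (53.1% of all kept genes). *Col3a1*, a fibrillar collagen chain, differed by -0.13 and -0.91, *Fn1*, fibronectin, by -0.27 and -0.36, *Fgb*, a fibrinogen chain, by -0.23 and -0.44 and *Postn*, periostin, by -0.21 and -0.20. The other fibrinogen chains did not follow *Fgb*: *Fgg* differed by 0.61 and 0.01 and *Fga* by 0.61 and -0.16.

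**Figure D4:**
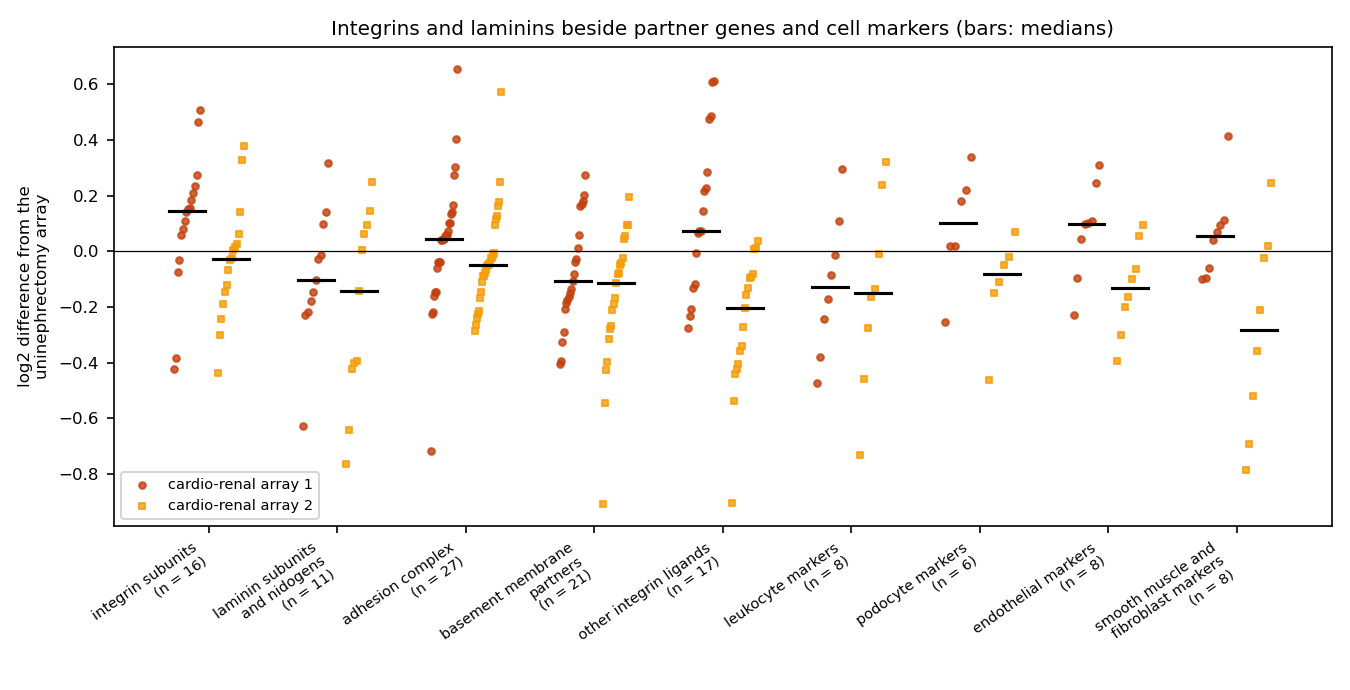
Log2 difference from the uninephrectomy array of each kept gene, in cardio-renal array 1 (circles) and array 2 (squares), for integrins, for laminins with nidogens, and for partner genes and cell markers; black bars are medians. The bars for laminins with nidogens lie below 0 in both arrays (-0.10 and -0.14), and those for smooth muscle and fibroblast markers lie apart (0.055 and -0.28).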

How the data were processed

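Kidney RNA of 2 cardio-renal and 1 uninephrectomy samples was labelled from 250 ng with a 3′ kit and hybridised to 1 single-colour array each, per the labels' protocols. The deposited values are intensities: the authors' MAS5 signals, per the submitters' processing notes, on a linear scale, with the MAS5 version not given in the sources used here. Each array's mean, trimmed by 2% at each end, was 500.0, and nothing further was normalized. Precision is limited by the number of arrays, and no detection calls were used.

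A single gene symbol was given for 34958 of 45101 probe sets; 932 with several and 9211 with none were not named. Symbols came from the platform annotation, updated through Entrez ID with a RefSeq table of GRCm38.p6. *Itga11* and *Itgad* were not analysed here. Values were turned into log2(signal + 28.8), 28.8 being the middle of the 3 arrays' lower quartiles. The model was fitted by limma 3.58.1 under R 4.3.3 (lmFit, then eBayes with trend, 1 residual degree of freedom), two-sided, with Benjamini-Hochberg adjustment over all kept genes at 0.05. The code was tested on simulated data. Offsets of 1 and 100, other filters, quantile normalization, other probe set rules, other variance models and single cardio-renal arrays were tried. All kept members are named; in partner lists, the 4 genes with both arrays on the same side and the largest difference in the array nearer to uninephrectomy alone are named, and from marker lists up to 4 of those so ranked. Other list genes and the promoters were picked after their values were seen. The members and lists were chosen with earlier results of these data known. Heart muscle and male-biased lists came from those results.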

Additional observations from a re-analysis of the deposited data

How the results depend on the processing

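With limma, 0 members passed under each of the 9 other settings that keep all arrays (offsets, filters, quantile normalization, probe set rules and variance models). Counts of members by direction changed by over 1.5 times where fewer genes were kept: in the upper quartile of signals, with 12 members kept, 3 were higher and 4 lower in both cardio-renal arrays and 4 differed by more than the cardio-renal pair. With the mean of all probe sets, 22 members were kept and 6 were lower in both. Leaving out a cardio-renal array gave 1 to 2 members at least 1.5-fold lower, *Lama3* without array 2 and *Lama2* and *Lama4* without array 1, against 0 with both. The same step moved the median member difference of -0.046 to between -0.032 and 0.079, and the cause was not tested. That median also turned positive with the mean of probe sets (0.026) and with no filter (0.010). With quantile normalization, 14 of 27 members differed by more than the cardio-renal pair, against 10 in the main setting. The share of all kept genes was not computed there. Apart from leaving out an array, the sign of a kept member's mean difference turned only for *Itgae*, to 0.15 with the mean of its probe sets and 0.38 without _x_at and _s_at probe sets. Without those probe sets *Lamb1* was at -0.023. Because the uninephrectomy group holds 1 array, leaving it out gave no value. No paired analysis was possible because the labels give the groups no shared replicate numbers. The 3 arrays limit the precision of every value, and 9 of 36 members had only signals of 103.7 or less.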
